A study of Homo sapiens with 6 samples.

Results

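Glycolysis turns glucose into pyruvate in the cytosol, and many tumour cells then reduce the pyruvate to lactate and export it. Several steps can be carried by more than one gene product, called paralogues here, which differ in tissue range, affinity or regulation. Glucose can instead be stored as glycogen, a branched polymer that phosphorylases later break down. Many of these genes are known targets of the hypoxia-inducible factors, and gliomas are known for high glucose uptake and lactate release.

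The genes described are those of glucose entry, glycolysis, lactate formation and export, and glycogen synthesis and breakdown. They were chosen by symbol from a list of 38 names, of which 37 were matched among the 32299 genes of the table. SLC2A10 was not analysed here. All 37 passed the filter on low counts among the 17927 genes tested, so no member was lost to it.

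RNA was sequenced from U87, an established human glioblastoma cell line, in 6 libraries. The 3 control-labelled libraries were labelled as cells transfected with a control vector, and the 3 others as cells that overexpressed tau, the microtubule-binding protein encoded by MAPT. The vector, its promoter, the tau isoform, the culture conditions and the time after transfection were not given in the sources used. Since no label ties the 3 libraries of a group to separate cultures, a p-value here reflects only how these samples vary, and that variation may be technical. Libraries are called control-labelled or tau-labelled, and higher or lower refers to the tau label against the control label.

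MAPT did not follow the labels. Its counts were 279, 391 and 345 in control-labelled libraries 1, 2 and 3 and 145, 150 and 176 in tau-labelled libraries 1, 2 and 3, so all 3 libraries labelled as tau-overexpressing lay below all 3 controls. Exchanged labels, a construct whose reads were not counted at MAPT and other possible reasons cannot be told apart here. Exchanged labels would turn every direction given below. Total counts per library ran from 58229083 to 65512119. VIM and CD44, mesenchymal genes that U87 is known to express, had mean levels of 1346 and 84.6 FPKM under the control label, while the astrocyte and glial markers GFAP, S100B, SOX2 and OLIG2 were each below 1 FPKM on average in both groups. Of 7 glioma and astrocyte markers tested, 4 fell and 1, VIM, rose, where 21.4% of all genes tested fell and 21.3% rose. NES fell from a mean of 12.1 to 2.95 FPKM and SLC1A3 from 3.61 to 1.69 FPKM (log2 fold changes -2.15 and -1.21). The others that fell, GFAP and ALDH1L1 (log2 fold changes -1.29 and -0.75), were scarce, with control-labelled means of 0.136 and 0.526 FPKM. FPKM is the authors' level per unit of transcript length and per unit of library size. Of the immune markers, 3 of 3 tested fell, led in level by CD68 (mean FPKM 151 ± 10.1 and 80.2 ± 7.34, SD, n = 3 each), and AIF1 was at 0. The list's summed FPKM ran from 146 to 165 under the control label and from 74.1 to 89.1 under the tau label. Of the endothelial markers 3 of 4 tested fell, with summed FPKM of 2.54 to 2.97 and 0.418 to 0.535 and CLDN5 at or near 0 in both groups. Summed FPKM was 25.4 to 33.7 and 39.6 to 49.9 for the neuron list, where 2 of 5 tested rose. TUBB3 made up most of that sum, with mean FPKM of 27.4 ± 4.21 and 41.1 ± 5.93 (SD, n = 3 each). Every other neuron marker found was below 1 FPKM on average in both groups. The other that rose, SYN1, had 0 to 7 counts under the control label and 35 to 42 under the tau label. For the epithelial list the sum was 0.682 to 0.860 and 0.164 to 0.201, and 1 of 3 tested fell. For the skeletal muscle list it was 0.248 to 0.574 and 0.0194 to 0.106, and 1 of 1 fell. The part of any of these in the results was not tested.

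Most members were lower under the tau label, among them every abundant gene from triose phosphate to pyruvate. Of the 37 members, 25 fell, 1 rose and 11 did not pass (an adjusted p below 0.05 over all genes in the quasi-likelihood test of edgeR). Over all genes tested, 21.4% fell and 21.3% rose by the same rule. The members were chosen with earlier results of these data known, so these shares describe them and test no excess. A fall with a log2 fold change of -1 or below was seen for 13 members, against 10% of all genes, and no member rose by 1 or more, against 7.5% of all genes. The median log2 fold change was -0.63 over the members and 0.00439 over all genes tested. Members are more abundant than most genes: 29 had a mean of at least 10 FPKM, of which 23 fell and 12 fell with a log2 fold change of -1 or below. Among all 3871 genes at that level, 30.2% fell and 5.35% fell with a log2 fold change of -1 or below. In FPKM, all tau-labelled libraries lay below all controls for 23 members, against 23.6% of all genes, and above them for 3 members, against 32.5% of all genes. The remaining 11 members overlapped. RNA per cell and the number of cells of a kind cannot be told apart in these bulk libraries.

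**Figure D1:**
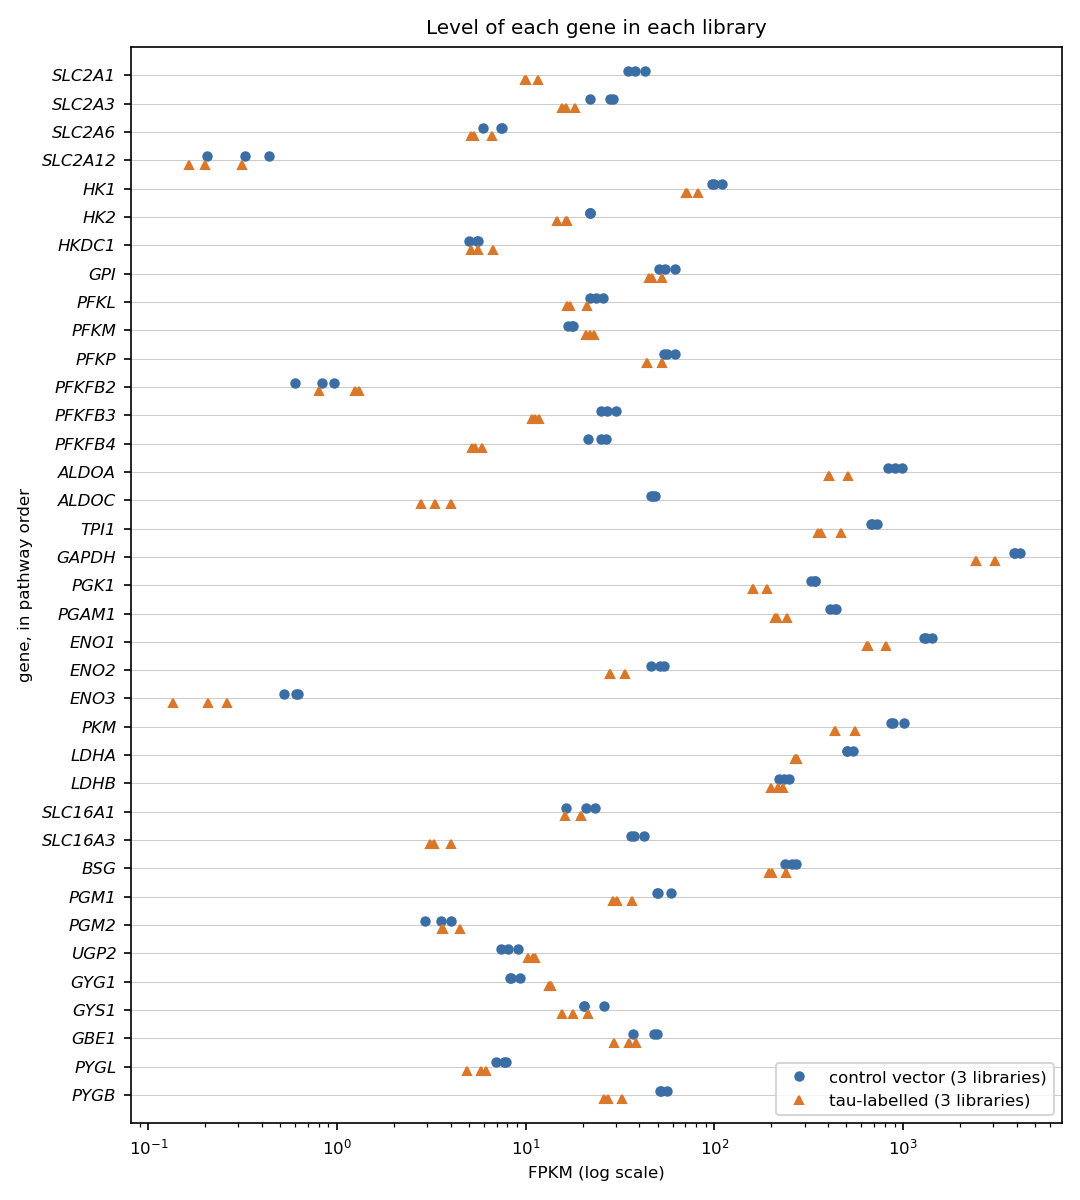
Level of each of the 37 genes in each library in FPKM on a log axis, in pathway order, with circles for the 3 control and triangles for the 3 tau-labelled libraries. The groups stand farthest apart for ALDOC and SLC16A3, where every tau-labelled library is below 5 FPKM, and GYG1, UGP2 and PFKM are the 3 genes whose tau-labelled libraries lie above all controls.

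The part of the transcriptome held by these genes was smaller under the tau label. Together they made up 3.74%, 3.62% and 3.70% of the summed FPKM of all genes in control-labelled libraries 1, 2 and 3. In tau-labelled libraries 1, 2 and 3 they made up 2.04%, 2.13% and 2.57%. The means were 3.69% ± 0.0607 and 2.25% ± 0.282 (SD, n = 3 each), and the exact two-sided permutation test gave p = 0.1, the smallest that 3 libraries against 3 allow. Tau-labelled library 3 stood nearest to the controls, and it held the highest FPKM of the 3 tau-labelled libraries for 25 of the 37 members. With TMM scaling it was the highest for 26 of the 37, where 38.6% of all genes tested had it highest.

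Promoter sequences are shown for the 4 members with the largest falls among those with a single RefSeq start site and for GYG1, the member that rose, because these genes carry the contrast described below. Each runs from 250 bases before to 50 bases after the start site (RefSeq, GRCh38.p14), 5′ to 3′ on the gene's own strand. Capitals mark ACGTG and GCGTG, the core letters of sites that hypoxia-inducible factors are known to bind, on either strand. A CACGTG palindrome holds ACGTG on both strands and counts as 2 matches of ACGTG. The windows lie at chr17:28576846-28577145 (ALDOC, minus strand), chr3:48556754-48557053 (PFKFB4, minus strand), chr1:42958819-42959118 (SLC2A1, minus strand), chrX:78103998-78104297 (PGK1, plus strand) and chr3:148991290-148991589 (GYG1, plus strand).
ALDOC: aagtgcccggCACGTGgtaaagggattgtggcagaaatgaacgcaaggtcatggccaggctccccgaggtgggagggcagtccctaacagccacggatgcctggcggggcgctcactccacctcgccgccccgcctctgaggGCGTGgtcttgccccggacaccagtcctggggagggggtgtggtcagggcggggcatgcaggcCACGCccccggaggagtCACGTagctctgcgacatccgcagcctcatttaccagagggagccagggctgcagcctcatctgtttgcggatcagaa
PFKFB4: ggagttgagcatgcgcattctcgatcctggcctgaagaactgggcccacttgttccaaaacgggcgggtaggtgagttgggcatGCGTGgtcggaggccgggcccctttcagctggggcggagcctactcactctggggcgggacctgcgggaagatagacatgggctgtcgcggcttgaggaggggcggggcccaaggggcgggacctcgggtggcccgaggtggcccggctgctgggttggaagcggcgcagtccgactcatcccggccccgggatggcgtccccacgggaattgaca
SLC2A1: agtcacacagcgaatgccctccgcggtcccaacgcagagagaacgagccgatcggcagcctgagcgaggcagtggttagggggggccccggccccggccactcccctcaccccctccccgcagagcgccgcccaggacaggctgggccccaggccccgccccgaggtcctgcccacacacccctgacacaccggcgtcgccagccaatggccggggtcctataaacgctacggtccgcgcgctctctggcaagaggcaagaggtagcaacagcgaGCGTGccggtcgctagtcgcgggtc
PGK1: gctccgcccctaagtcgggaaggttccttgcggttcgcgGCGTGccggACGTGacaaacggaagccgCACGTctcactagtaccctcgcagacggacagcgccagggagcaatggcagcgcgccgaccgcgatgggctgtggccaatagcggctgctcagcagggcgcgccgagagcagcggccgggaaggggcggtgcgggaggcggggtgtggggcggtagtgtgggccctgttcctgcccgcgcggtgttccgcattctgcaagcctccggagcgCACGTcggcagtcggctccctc
GYG1: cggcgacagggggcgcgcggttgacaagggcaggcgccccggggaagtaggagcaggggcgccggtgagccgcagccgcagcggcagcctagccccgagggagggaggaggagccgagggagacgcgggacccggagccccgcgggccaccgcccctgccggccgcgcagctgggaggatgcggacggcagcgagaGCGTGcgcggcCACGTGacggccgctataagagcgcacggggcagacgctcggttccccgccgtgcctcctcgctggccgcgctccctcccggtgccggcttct

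The windows of ALDOC, PFKFB4, SLC2A1 and PGK1, which fell, held 5, 1, 1 and 4 matches, and that of GYG1, which rose, held 3. RefSeq windows were matched for 34 of the 37 members, 64 windows in all, and not for SLC2A3, SLC16A1 and PFKFB2. At least 1 of the 2 motifs was present in 42 of the 64 windows (65.6%), and in 48.4% of all 35116 windows of that length. ACGTG was in 23 member windows (35.9%, against 21.4% of all) and GCGTG in 31 (48.4%, against 36.5% of all). CACGTG, a sequence known to be bound by MYC and other E-box factors, was in 9 (14.1%, against 7.26% of all). Among members that fell, 31 of 47 windows held ACGTG or GCGTG (65.96%), and among those that rose or did not pass 11 of 17 did (64.7%). Among members that fell with a log2 fold change of -1 or below, 18 of 22 windows did (81.8%). These are counts of windows, and members differ in how many they have, so the percentages do not compare genes. Counted by gene, 31 of the 34 members held a motif in at least 1 window. Of the 21 members with 1 window, 18 held a motif, against 47.3% of all 22114 genes with 1 window. Member windows had a median GC content of 68.3%, and all windows one of 58.7%. A match of letters is a description and no evidence of binding.

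Glucose enters cells through facilitative transporters of the SLC2A family, and of the 4 measured here the 2 most abundant fell. Values are listed in the order of libraries 1, 2 and 3 of each group, and coordinates are those of the authors' table on GRCh38. Log2 fold changes are given ± their standard error (SE). SLC2A1, the widely expressed transporter GLUT1 (chromosome 1, 42925353 to 42958868, minus strand), had 42.9, 34.9 and 38.1 FPKM under the control label and 9.85, 10.1 and 11.7 FPKM under the tau label. All 3 tau-labelled libraries lay far below all controls, and the log2 fold change was -1.99 ± 0.13, a 3.97-fold fall (edgeR, adjusted p = 8.3e-06). SLC2A3, the high-affinity transporter GLUT3 that is prominent in neurons (chromosome 12, 7919230 to 7936187, minus strand), had 22.02, 29.1 and 27.8 FPKM under the control label and 18.2, 16.3 and 15.6 FPKM under the tau label. Its groups did not overlap either, with a smaller log2 fold change of -0.77 ± 0.12 (edgeR, adjusted p = 0.000809).

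The order of these transporters by level differed between the groups. SLC2A1 made up 59.1, 49.7 and 51.7% of the summed FPKM of the 4 transporters under the control label and 29.4, 31.7 and 34.3% under the tau label. SLC2A3 made up 30.3, 41.4 and 37.8% and 54.3, 51.1 and 45.7%, so it was the smaller of the pair in every control-labelled library and the larger in every tau-labelled library. SLC2A6, a lysosomal transporter, and SLC2A12 did not pass, with log2 fold changes of -0.40 ± 0.16 and -0.63 ± 0.35. SLC2A6 was called as lower in 5 of 19 other settings, among them DESeq2 (log2 fold change -0.41, adjusted p = 0.0334). Another was the fit without tau-labelled library 3 (log2 fold change -0.54, edgeR, adjusted p = 0.0223). Under GC and length offsets its log2 fold change was -0.038 (edgeR, adjusted p = 0.807). SLC2A12 was scarce, with 0.164 to 0.436 FPKM over all 6 libraries, and was called under GC and length offsets (log2 fold change -0.87, edgeR, adjusted p = 0.0479). The summed level of the step was 72.2 ± 1.72 FPKM under the control label and 33.1 ± 1.16 FPKM under the tau label (SD, n = 3 each), or 45.9% of control.

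Hexokinases trap glucose by phosphorylating it, and HK1 and HK2, the more abundant of the 3 measured, fell. HK1, the widely expressed form (chromosome 10, 69269984 to 69401884, plus strand), had 110.0, 99.4 and 96.98 FPKM under the control label and 71.8, 70.8 and 81.8 FPKM under the tau label (log2 fold change -0.57 ± 0.11, edgeR, adjusted p = 0.00328). HK2, the form known to be induced in many tumours, had 21.9, 21.9 and 21.9 FPKM under the control label and 16.6, 16.3 and 14.7 FPKM under the tau label (log2 fold change -0.59 ± 0.10, edgeR, adjusted p = 0.00124). Neither gene's groups overlapped. HKDC1, a hexokinase-like gene, ranged from 4.98 to 6.70 FPKM with overlapping groups and a log2 fold change of -0.00 ± 0.15. HK1 held 78.9% ± 0.979 of the summed FPKM under the control label and 77.5% ± 1.56 under the tau label, and HK2 held 16.96% ± 0.919 and 16.5% ± 2.00 (SD, n = 3 each). Both shares overlapped between the groups (exact two-sided permutation test, p = 0.3 and 0.9). HKDC1 held 4.14% ± 0.186 and 5.98% ± 0.52 (SD, n = 3 each). Its share was higher in every tau-labelled library than in any control (exact two-sided permutation test, p = 0.1).

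GPI, which converts glucose 6-phosphate to fructose 6-phosphate (chromosome 19, 34359480 to 34402413, plus strand), did not pass. It had 61.9, 50.99 and 54.4 FPKM under the control label and 46.7, 45.2 and 52.7 FPKM under the tau label, with overlap, and edgeR gave a log2 fold change of -0.33 ± 0.12 at an adjusted p of 0.051. It was called as lower in 7 of 19 other settings, among them DESeq2 (log2 fold change -0.34, adjusted p = 0.0251). Another was the fit without tau-labelled library 3, at a log2 fold change of -0.42 and an adjusted p of 0.0230 (edgeR). GC and length offsets gave -0.11 at an adjusted p of 0.357 (edgeR).

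Phosphofructokinase 1, the committed step of glycolysis, is built from the products of PFKP, PFKL and PFKM, known as the platelet, liver and muscle forms. PFKP (chromosome 10, 3066333 to 3137715, plus strand) had 61.9, 53.97 and 55.8 FPKM under the control label and 43.6, 43.7 and 52.8 FPKM under the tau label, and PFKL had 25.5, 23.6 and 21.96 FPKM and 16.5, 17.1 and 21.1 FPKM. Both fell, with log2 fold changes of -0.41 ± 0.12 and -0.49 ± 0.14 (edgeR, adjusted p = 0.0237 and 0.0155). PFKM had 17.8, 16.7 and 17.5 FPKM under the control label and 21.8, 20.8 and 23.02 FPKM under the tau label, above all controls in FPKM, but with a log2 fold change of 0.22 ± 0.10 it did not pass (edgeR, adjusted p = 0.12). PFKM's share of the step was 17.7% ± 0.727 under the control label and 25.3% ± 1.43 under the tau label (SD, n = 3 each). The summed level of the step was 98.3 ± 6.09 FPKM and 86.8 ± 8.74 FPKM, with overlap (exact two-sided permutation test, p = 0.3). With offsets for GC content and transcript length in the edgeR fit, PFKP had a log2 fold change of -0.02 and was not called, and PFKM had one of 0.43 and was called. PFKL and PFKP also lost their calls without control-labelled library 2 (edgeR, adjusted p = 0.0504 and 0.0503), tau-labelled library 1 (0.0779 and 0.108) or tau-labelled library 2 (0.0716 and 0.106), and PFKP without control-labelled library 1 (0.0751).

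The bifunctional enzymes of the PFKFB family make and remove fructose 2,6-bisphosphate, the strongest known activator of phosphofructokinase 1. Both of the more abundant genes fell with log2 fold changes below -1. PFKFB4 (chromosome 3, 48517684 to 48561972, minus strand) had 26.8, 21.5 and 25.04 FPKM under the control label and 5.36, 5.16 and 5.87 FPKM under the tau label, a 4.84-fold fall (log2 fold change -2.28 ± 0.13, edgeR, adjusted p = 3.7e-06). PFKFB3, the form with the highest kinase activity (chromosome 10, 6144934 to 6254644, plus strand), had 29.9, 25.02 and 27.1 FPKM under the control label and 11.7, 10.7 and 11.2 FPKM under the tau label, a 2.65-fold fall (log2 fold change -1.40 ± 0.12, edgeR, adjusted p = 2.8e-05). The groups of both genes were far apart. PFKFB2 had a log2 fold change of 0.36 ± 0.22 and did not pass. PFKFB3 held 52.04% ± 0.945 of the step under the control label and 63.02% ± 0.664 under the tau label, and PFKFB4 held 46.4% ± 0.935 and 30.7% ± 1.96 (SD, n = 3 each). The step summed to 52.6 ± 4.99 FPKM and 17.8 ± 0.629 FPKM, or 33.8% of control.

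Aldolases split fructose 1,6-bisphosphate, and ALDOC, the form characteristic of brain, had the largest fall of all members. ALDOC (chromosome 17, 28573115 to 28576948, minus strand) had 47.4, 48.3 and 46.3 FPKM under the control label and 2.78, 3.32 and 4.02 FPKM under the tau label. No tau-labelled library came near a control, and the fit gave a 15.1-fold fall (log2 fold change -3.92 ± 0.16, edgeR, adjusted p = 8.1e-07). In the order of all genes by mean FPKM, ALDOC moved from place 813 to place 7736. ALDOA, the form of muscle and most tissues (chromosome 16, 30064164 to 30070414, plus strand), was far more abundant, with 983, 901 and 829.9 FPKM under the control label and 403, 404 and 507 FPKM under the tau label (log2 fold change -1.16 ± 0.13, edgeR, adjusted p = 0.000148). ALDOC's share of the step was 4.99% ± 0.349 under the control label and 0.763% ± 0.069 under the tau label (SD, n = 3 each). The summed level was 46.4% of control.

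**Figure D2:**
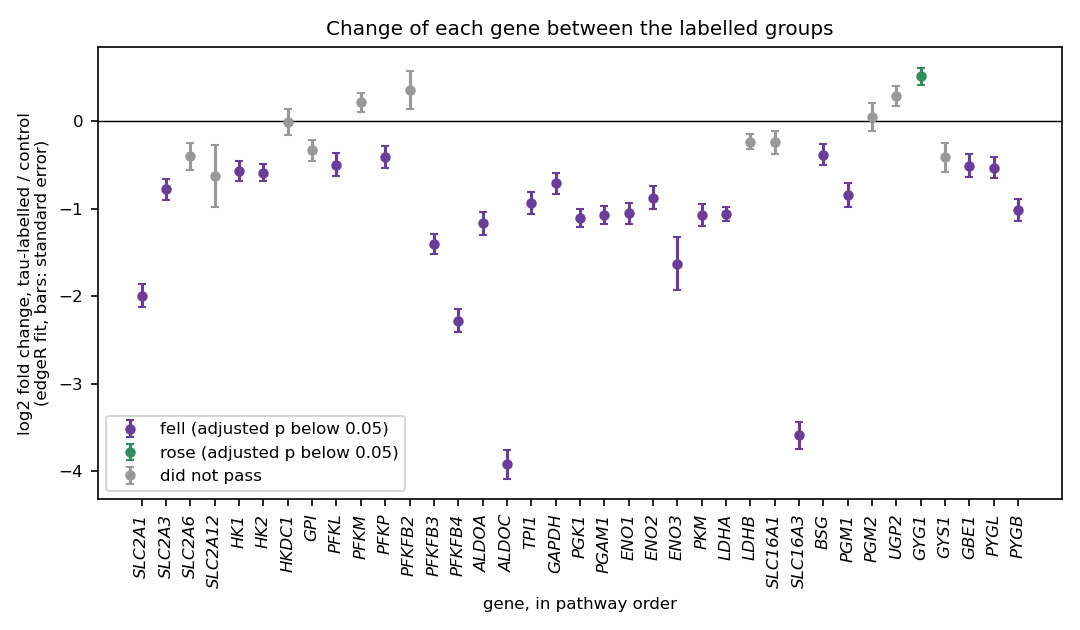
Log2 fold change of each of the 37 genes in edgeR's fit, tau label against control label, with bars of 1 standard error and points coloured by whether the gene fell, rose or did not pass. ALDOC at -3.92 and SLC16A3 at -3.59 lie farthest below 0, and GYG1 at 0.52 is the gene that rose.

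From triose phosphate to pyruvate every abundant gene fell, by log2 fold changes between -1.10 and -0.71. TPI1, which interconverts the triose phosphates (chromosome 12, 6867119 to 6870948, plus strand), had 731, 676 and 683 FPKM under the control label and 356, 366 and 466 FPKM under the tau label (log2 fold change -0.93 ± 0.13, edgeR, adjusted p = 0.000456). GAPDH, which yields NADH (chromosome 12, 6534512 to 6538371, plus strand), had 4140.4, 3908 and 3873 FPKM under the control label and 2432, 2418 and 3052 FPKM under the tau label (log2 fold change -0.71 ± 0.11, edgeR, adjusted p = 0.00105). In both genes tau-labelled library 3 was the highest of its group and still below every control. GAPDH is often used as a reference gene, and it moved from place 7 to place 13 among all genes by mean FPKM. It held 38.3% ± 0.229 of the members' summed FPKM under the control label and 42.3% ± 0.866 under the tau label (SD, n = 3 each).

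PGK1, which makes ATP (chromosome X, 77910739 to 78129295, plus strand, a span that starts well before the RefSeq start site), had 324, 342 and 342 FPKM under the control label and 160.1, 160.1 and 189 FPKM under the tau label (log2 fold change -1.10 ± 0.10, edgeR, adjusted p = 5.9e-05). PGAM1, the phosphoglycerate mutase (chromosome 10, 97426191 to 97433444, plus strand), had 442, 411 and 433 FPKM and 214, 210.4 and 242 FPKM (log2 fold change -1.07 ± 0.10, edgeR, adjusted p = 6.8e-05). Neither gene overlapped between the groups. PKM, the pyruvate kinase that makes the last ATP of the pathway (chromosome 15, 72199029 to 72231680, minus strand), had 1004, 866 and 880.4 FPKM under the control label and 434, 433 and 554 FPKM under the tau label (log2 fold change -1.07 ± 0.13, edgeR, adjusted p = 0.000222). Its splice forms were not separated, because values are per gene.

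Enolases precede pyruvate kinase. ENO1, the widely expressed form (chromosome 1, 8861000 to 8878690, minus strand), had 1415, 1285 and 1324 FPKM under the control label and 651, 643 and 813 FPKM under the tau label (log2 fold change -1.05 ± 0.12, edgeR, adjusted p = 0.000152). ENO2, the neuron-specific enolase of neurons and neuroendocrine cells, had 53.9, 51.2 and 46.1 FPKM and 27.99, 28.1 and 33.6 FPKM (log2 fold change -0.87 ± 0.13, edgeR, adjusted p = 0.000663). ENO3, the muscle form (chromosome 17, 4948092 to 4957131, plus strand), was scarce, with 0.605, 0.621 and 0.523 FPKM under the control label and 0.207, 0.136 and 0.262 FPKM under the tau label (log2 fold change -1.63 ± 0.30, edgeR, adjusted p = 0.00225). All 3 enolases were lower in every tau-labelled library than in any control. ENO1 held 96.3% ± 0.24 of the summed enolase FPKM under the control label and 95.9% ± 0.104 under the tau label (SD, n = 3 each). ENO3 overlaps PFN1 on the opposite strand. Summed over each group's 3 libraries, PFN1 had 160923 and 85539 counts and ENO3 had 515 and 179, so the ENO3 values are uncertain.

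Lactate dehydrogenase is a tetramer of LDHA and LDHB products, of which LDHA is the form associated with lactate production. LDHA (chromosome 11, 18394560 to 18408218, plus strand) had 505, 506 and 543 FPKM under the control label and 269, 266 and 273 FPKM under the tau label, without overlap (log2 fold change -1.06 ± 0.08, edgeR, adjusted p = 1.5e-05). LDHB (chromosome 12, 21635342 to 21657971, minus strand) had 219, 233 and 249 FPKM and 218, 231 and 199 FPKM, with overlap, and did not pass (log2 fold change -0.23 ± 0.09, edgeR, adjusted p = 0.0611). Under GC and length offsets the log2 fold change of LDHB was -0.12 (edgeR, adjusted p = 0.218). It was called as lower in 4 of 19 other settings. These were upper quartile scaling (log2 fold change -0.33, edgeR, adjusted p = 0.0146) and DESeq2 (-0.24, adjusted p = 0.0411). The others were a mean FPKM of at least 1 (-0.25, edgeR, adjusted p = 0.0384) and protein-coding genes only (-0.24, edgeR, adjusted p = 0.0454). LDHA made up 69.7, 68.5 and 68.6% of the pair under the control label and 55.2, 53.6 and 57.9% under the tau label. The share was lower in every tau-labelled library than in any control, and the summed level was 64.6% of control.

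Lactate leaves the cell through monocarboxylate transporters, and the main transporter by level changed between the groups. SLC16A3, the low-affinity exporter MCT4 of highly glycolytic cells (chromosome 17, 82217934 to 82240086, plus strand), had 42.6, 36.2 and 37.3 FPKM under the control label and 3.13, 3.28 and 4.04 FPKM under the tau label. The fit gave a 12.03-fold fall (log2 fold change -3.59 ± 0.15, edgeR, adjusted p = 8.1e-07). SLC16A1, the widely expressed MCT1 that carries lactate in either direction (chromosome 1, 112911847 to 112957013, minus strand), had 16.2, 20.9 and 23.2 FPKM and 19.6, 19.7 and 16.1 FPKM, with overlap, and did not pass (log2 fold change -0.24 ± 0.13, edgeR, adjusted p = 0.178). With offsets for GC content and length its log2 fold change was -0.41 and it was called as lower, as it was without control-labelled library 1 (log2 fold change -0.35, edgeR, adjusted p = 0.0465). SLC16A1 made up 27.6, 36.6 and 38.3% of the pair's summed FPKM under the control label and 86.3, 85.7 and 79.96% under the tau label. SLC16A3 was thus the larger of the pair in all controls and the smaller in all tau-labelled libraries, and the sum was 37.4% of control.

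SLC16A3 overlaps CSNK1D on the opposite strand. Summed over each group's 3 libraries, CSNK1D had 38162 and 32492 counts where SLC16A3 had 71862 and 6385. Whether counting used the strand is not stated. BSG, the chaperone that brings these transporters to the membrane (chromosome 19, 571277 to 583493, plus strand), had 269, 258 and 237 FPKM under the control label and 201, 196 and 239.9 FPKM under the tau label (log2 fold change -0.38 ± 0.12, edgeR, adjusted p = 0.0275). It fell by the test, although the highest tau-labelled library lay within the range of the controls. With offsets for GC content and length its log2 fold change was 0.07 and it was not called, and edgeR's adjusted p was 0.0831, 0.0890, 0.117 and 0.123 without control-labelled library 1, control-labelled library 2, tau-labelled library 1 and tau-labelled library 2.

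**Figure D3:**
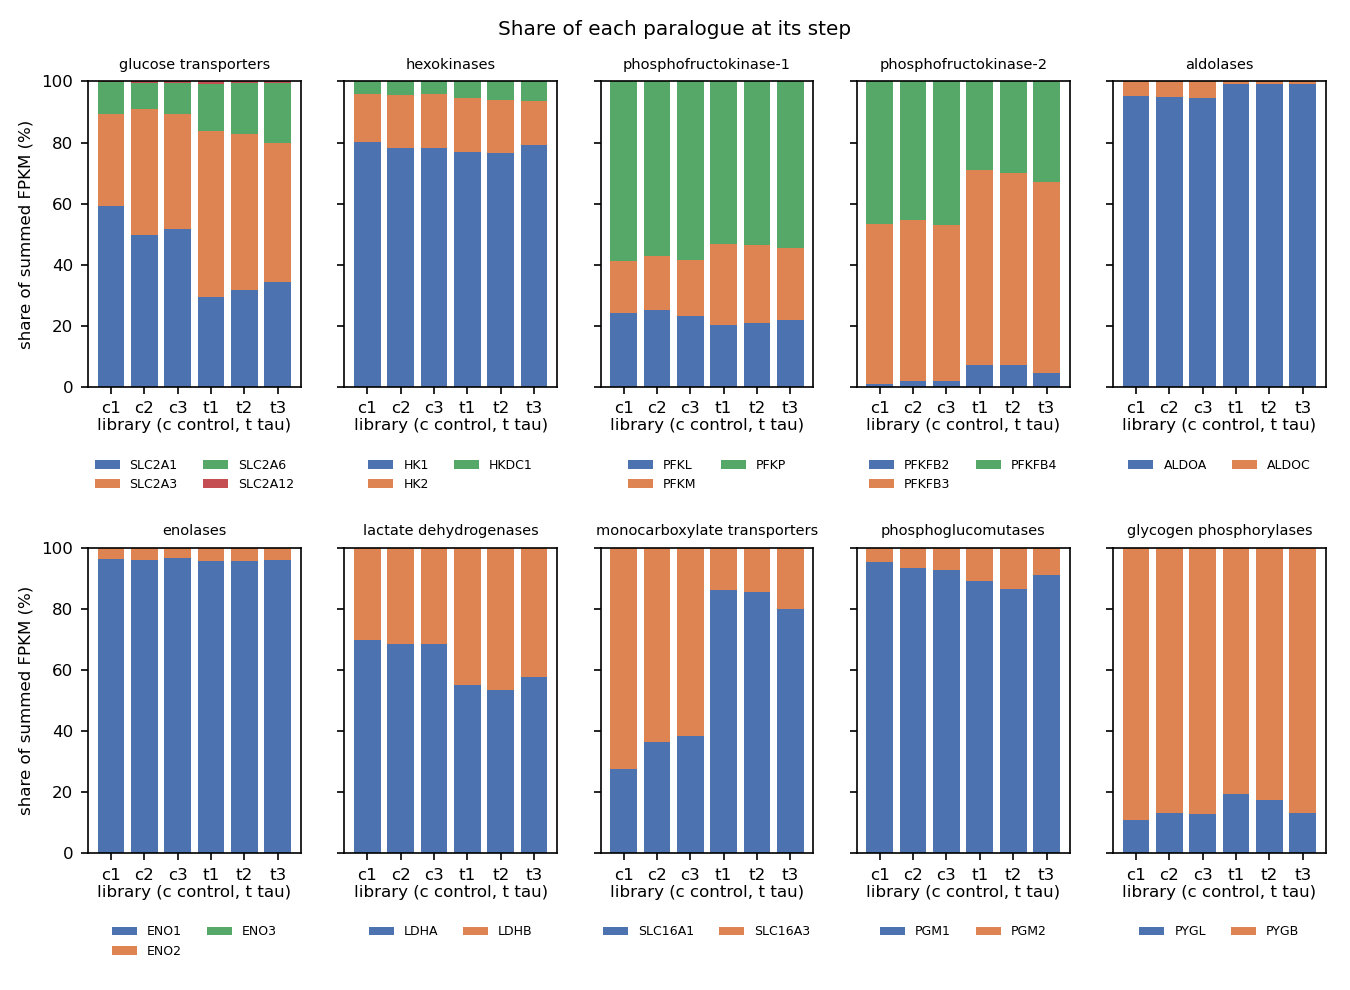
Share of each paralogue in the summed FPKM of its step, in percent, for 10 steps with more than 1 member, as stacked bars for control-labelled libraries 1 to 3 (c1 to c3) and tau-labelled libraries 1 to 3 (t1 to t3). The widest change is at the monocarboxylate transporters, where SLC16A1 goes from 34.2% to 83.98% on average, while the hexokinase bars differ little.

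Over the 10 steps with more than 1 member, 21 shares were compared. Of these, 10 were higher and 8 lower without overlap between the groups. Each of these 18 had p = 0.1 by the exact two-sided permutation test, the smallest that 3 libraries against 3 allow, and none was below 0.117 after Benjamini-Hochberg adjustment over the 21. In FPKM, which is a level and not a share, 23.6% of all genes tested were lower and 32.5% higher without overlap. A share can move because either paralogue moves, and the shares of 1 step are not independent.

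Glycogen genes moved in different directions along the route. PGM1, which links glucose 6-phosphate to glucose 1-phosphate (chromosome 1, 63593411 to 63660245, plus strand), had 58.6, 49.4 and 50.2 FPKM under the control label and 30.3, 28.99 and 36.4 FPKM under the tau label, without overlap (log2 fold change -0.84 ± 0.14, edgeR, adjusted p = 0.00107). PGM2 had a log2 fold change of 0.05 ± 0.15 and did not pass. UGP2, which makes the glycogen precursor UDP-glucose (chromosome 2, 63840952 to 63891562, plus strand), had 8.04, 7.36 and 9.09 FPKM under the control label and 10.99, 11.2 and 10.3 FPKM under the tau label. All tau-labelled libraries were above all controls in FPKM, but UGP2 did not pass (log2 fold change 0.29 ± 0.11, edgeR, adjusted p = 0.0554). It was called as higher in 6 of 19 other settings, among them library size scaling (log2 fold change 0.40, edgeR, adjusted p = 0.0177). The GC and length offsets gave a log2 fold change of -0.05.

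GYG1 encodes glycogenin, the protein primer on which a glycogen particle starts (chromosome 3, 148991408 to 149027668, plus strand), and it was the member that rose. It had 8.38, 8.23 and 9.37 FPKM under the control label and 13.2, 13.6 and 13.4 FPKM under the tau label. The tau-labelled libraries were close to each other and above every control, a 1.43-fold rise (log2 fold change 0.52 ± 0.10, edgeR, adjusted p = 0.00267). GYS1, the glycogen synthase of tissues other than liver (chromosome 19, 48968130 to 48993310, minus strand), had 26.1, 20.3 and 20.4 FPKM and 17.9, 15.5 and 21.3 FPKM, with overlap. It did not pass (log2 fold change -0.41 ± 0.16, edgeR, adjusted p = 0.0708). It was called as lower in 5 of 19 other settings, among them DESeq2 (log2 fold change -0.42, adjusted p = 0.0285). Another was the fit without tau-labelled library 3 (log2 fold change -0.56, edgeR, adjusted p = 0.0260). Under GC and length offsets its log2 fold change was -0.057 (edgeR, adjusted p = 0.674). GBE1, the branching enzyme (chromosome 3, 81489703 to 81761645, minus strand), had 37.2, 47.8 and 49.9 FPKM under the control label and 35.4, 38.4 and 29.2 FPKM under the tau label (log2 fold change -0.50 ± 0.13, edgeR, adjusted p = 0.0108). It fell by the test with groups that overlapped in FPKM, since control-labelled library 1 lay below the highest tau-labelled library.

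Glycogen phosphorylases, which release glucose 1-phosphate, both fell. PYGB, the brain form (chromosome 20, 25248085 to 25298012, plus strand), had 56.03, 52.3 and 51.3 FPKM under the control label and 25.8, 27.3 and 32.5 FPKM under the tau label (log2 fold change -1.01 ± 0.13, edgeR, adjusted p = 0.000265). PYGL, the liver form, had 6.95, 7.83 and 7.64 FPKM and 6.16, 5.80 and 4.91 FPKM (log2 fold change -0.53 ± 0.12, edgeR, adjusted p = 0.00556). Neither overlapped between the groups, and PYGB kept most of the summed level, with 87.7% ± 1.13 under the control label and 83.4% ± 3.16 under the tau label (SD, n = 3 each). PYGB overlaps ABHD12 on the opposite strand, which had 18479 and 18932 counts over the groups where PYGB had 47618 and 25186.

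**Figure D4:**
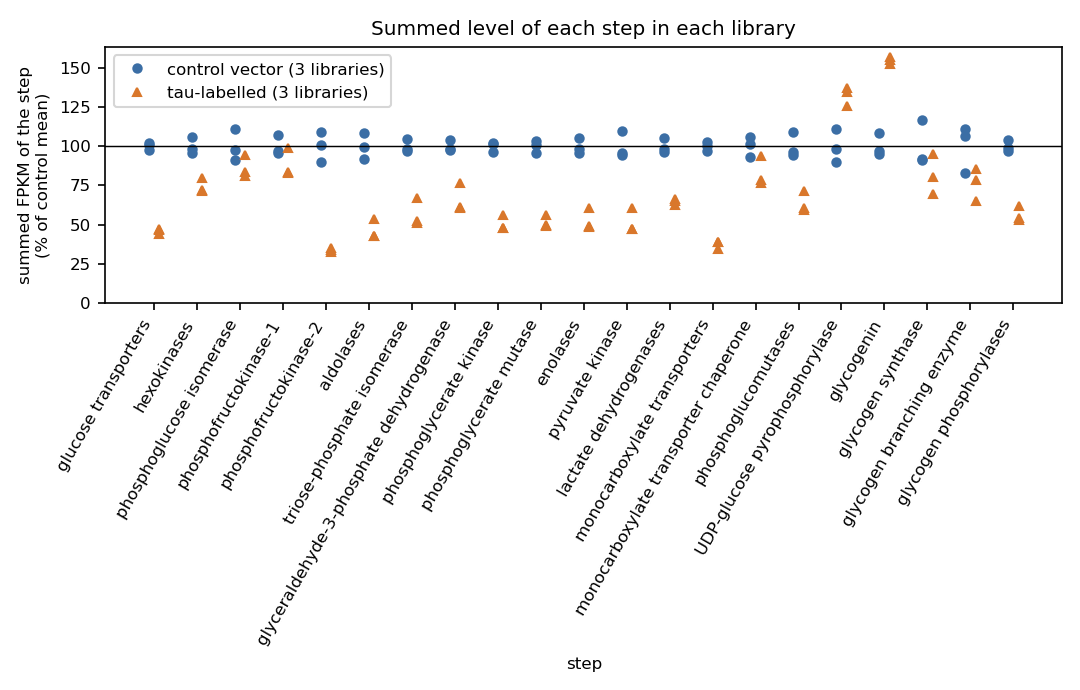
Summed FPKM of each of the 21 steps in each library as a percentage of the control-labelled mean, with circles for control-labelled and triangles for tau-labelled libraries. The step of PFKFB2, PFKFB3 and PFKFB4 is lowest at 33.8% of control on average, and the UGP2 and GYG1 steps lie above 100%, at 133% and 155%.

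Summed by step, 14 of 21 steps were lower and 2 were higher in every tau-labelled library than in any control. Of all genes tested, 23.6% were lower and 32.5% higher in this way in FPKM. A step with 1 member repeats that member's values. The smallest Benjamini-Hochberg adjusted p over the 21 exact permutation tests of step sums was 0.131. The steps of PFKFB, lactate export, glucose transport and aldolase stood at 33.8%, 37.4%, 45.9% and 46.4% of control. Hexokinase and phosphofructokinase 1 stood at 74.5% and 88.4%. No adjusted p passed at this number of libraries.

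Other genes of these pathways were counted from lists that leave out the members. Over all genes tested, 21.4% fell and 21.3% rose, and no list was tested as a set. Of 7 other glucose transporters tested, 2 fell and none rose at an adjusted p below 0.05 in edgeR's fit. SLC2A5, a fructose transporter, had a log2 fold change of -1.80. Of 9 other isoforms of glycolysis and lactate handling, 4 fell and 1 rose. LDHD, which oxidises D-lactate, fell with a log2 fold change of -2.20. The riser SLC16A7, the monocarboxylate transporter MCT2, had 0.83, and it was named after its value was seen. Among 8 genes of gluconeogenesis and of brakes on glycolysis, 4 fell and 2 rose. TXNIP, a protein known to reduce glucose uptake, went from 94.9 ± 26.9 to 31.7 ± 1.82 FPKM (mean ± SD, n = 3), falling with a log2 fold change of -1.70, and its relative ARRDC4 rose by 1.02 on the log2 scale. PCK2, the mitochondrial phosphoenolpyruvate carboxykinase, fell with a log2 fold change of -1.53.

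Among 18 other glycogen genes, 5 fell and 3 rose, where 21.4% of all genes tested fell and 21.3% rose. PPP1R3C and PPP1R3G, which bring a phosphatase to glycogen, fell with log2 fold changes of -1.13 and -2.75, and GAA, the lysosomal glycogen hydrolase, fell with -1.05. Of the subunits of phosphorylase kinase, PHKA1 and PHKA2 rose with log2 fold changes of 0.65 and 0.51, PHKG1 fell with -1.48, and PHKB and PHKG2, at -0.13 and 0.036, did not pass. These subunits were named after their values were seen. Of 9 genes of the pentose phosphate pathway, 5 fell and 1 rose. PGD, the phosphogluconate dehydrogenase, fell with a log2 fold change of -1.28, and RBKS, the ribokinase, with -2.02. Of 18 genes of the hexosamine, UDP-glucose and glycerol phosphate branches, 7 fell and 5 rose. MPI and GPD1, which act on mannose phosphate and glycerol phosphate, fell with log2 fold changes of -1.24 and -3.03. GPD1 was near the floor, with 19, 25 and 36 counts under the control label and 3, 3 and 4 under the tau label. Its more abundant relatives went both ways. GPD1L fell with a log2 fold change of -0.58 (mean FPKM 7.64 and 5.54), and GPD2 rose with 0.92 (3.11 and 6.35). Both were named after their values were seen. KHK, the fructokinase, rose by 1.10 on the log2 scale.

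GC content moved with the changes among the members. Their transcripts had a median GC content of 53.1%, against 48.6% over all genes tested, and ran from 38.9% to 64.1%. Of the 19 members at or above the member median, 15 fell, with a median log2 fold change of -0.93, and of the 18 below it 10 fell, with a median of -0.55. With offsets for GC content and transcript length in edgeR's fit, 25 members fell and 2 rose, and the median log2 fold change of the members was -0.49, where that of all genes was 0.07. Log2 fold changes shrank by over 1.5 times for HK1 (-0.33), PFKL (-0.25), TPI1 (-0.48), GAPDH (-0.25), PGAM1 (-0.70), ENO2 (-0.51) and PYGL (-0.30), all still called. Of members at -1 or below in the main fit, ALDOA, ENO1, PKM and PYGB had -0.80, -0.73, -0.76 and -0.70, also still called. Like PGAM1, they no longer reached -1. Log2 fold changes stayed at -1 or below for PFKFB3 (-1.13), PGK1 (-1.31), ENO3 (-1.18) and LDHA (-1.10). Those of ALDOC, SLC16A3, PFKFB4 and SLC2A1 were -3.49, -3.29, -1.94 and -1.69.

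Other members share positions or near-identical copies with other genes. PFKM overlaps SENP1, PFKFB2 overlaps YOD1, SLC2A12 overlaps TBPL1 and PGM1 overlaps ITGB3BP, each on the opposite strand. SENP1 had 2985 and 6081 counts summed over the groups, where PFKM had 25284 and 31329. YOD1 had 1579 and 2451 counts, against 1634 and 2220 for PFKFB2, and TBPL1 had 4128 and 5563, against 362 and 248 for SLC2A12. ITGB3BP had 3763 and 3979 counts, against 43228 and 25774 for PGM1. SLC16A1 overlaps SLC16A1-AS1 on the opposite strand, with 957 and 1359 counts against 25617 and 23041. HKDC1 likewise overlaps a gene without a symbol, with 86 and 132 against 4541 and 4846. The values of these members, and of ENO3, SLC16A3 and PYGB above, are uncertain to the extent that counting ignored the strand. On the same strand, PFKFB4 overlaps UCN2 (1194 and 355 counts against 30032 and 6606). So do ENO2 and LRRC23 (1949 and 909 against 43314 and 25360), and ALDOA and a gene without a symbol (12487 and 5096 against 695385 and 332277). Rows named as pseudogenes of members held at most 1.07% of the member's counts, with TPI1 the highest. SLC2A14, a close copy of SLC2A3, had 53 to 153 counts per library, and PGAM4, a close copy of PGAM1, had 179 to 333. Summed over a group, SLC2A3 had 32023 and 19922 counts and PGAM1 had 218858 and 111537.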

How the data were processed

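Poly(A) RNA of 6 U87 libraries was sequenced in pairs after a dUTP preparation that keeps the strand, per the labels' protocols. Whether counting used the strand is not stated. The submitters' processing notes name cutadapt 1.9, HISAT2 2.2.1, StringTie 2.1.6 and GRCh38, and DESeq2 and edgeR with no role or version. The authors' deposited table gives whole-number counts and FPKM per gene. The tool that made the counts is not named there. The deposited FPKM equals the count divided by 1 length for each gene and 1 scaling factor for each library, since 99.9% of ratios lay within 1% over 10677 genes. Columns were matched to libraries by title.

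The test was run in edgeR 4.0.16 (R 4.3.3), with filterByExpr (minimum count 10, total 15), TMM scaling, the two-sided quasi-likelihood test with group as the term, and Benjamini-Hochberg adjustment over 17927 genes. A gene with an adjusted p below 0.05 is said to have risen or fallen. Fold changes come from this fit, not from ratios of FPKM. FPKM, which is per length, was used for levels, shares and step sums, with exact permutation tests. Replicates within a group had correlations of log2 CPM from 0.972 to 0.977, and between groups from 0.927 to 0.944. Total counts of 58229083 to 65512119 are the depth. Alternatives used other scalings, DESeq2 1.42.0, limma 3.58.1, other filters, GC and length offsets, the replicate number as a block, and each library left out. GC content and length came from GENCODE transcripts. Full values were set by rule for members that hold the largest share of their step, that were called with a log2 fold change of at least 1 in size, or that moved against most members. A few further members are also given in full. Of the other lists, up to 3 called genes per direction with a log2 fold change of at least 1 in size and the smallest p are named, and some genes that this rule names are not reported here. The members and lists were chosen with earlier results of these data known.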

Additional observations from a re-analysis of the deposited data

How the results depend on the processing

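Of 26 called members, 22 were called in every other setting in which they were tested, which were 19 settings, or 18 for ENO3, which was not tested at a mean FPKM of at least 1. PFKL, PFKP, BSG and GBE1 were not. The members that fell numbered 22 to 29 over these settings, and 22 to 28 when each library was left out in turn. GYG1 rose in each, while the number that rose was 1 in each leave-one-out, 3 with library size only, 2 with DESeq2, 2 with limma-voom, 3, 3 and 3 with limma on log2(FPKM + 0.5), log2(FPKM + 0.1) and log2(FPKM + 1), and 2 with GC and length offsets. PFKM and UGP2 were the additions with library size and FPKM, where the median of all genes was 0.12 and 0.06 (log2), and it was -0.10 with upper quartile scaling. GBE1 had an adjusted p of 0.0501 with library size only (edgeR) and 0.0547 with limma on log2(FPKM + 0.5). The cause of these changes was not tested.

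HKDC1, at -0.00 in the main setting, had log2 fold changes of 0.11 with library size only, 0.096, 0.10 and 0.089 with limma on log2(FPKM + 0.5), log2(FPKM + 0.1) and log2(FPKM + 1), and 0.26 with GC and length offsets. Those offsets gave 0.072 for BSG, -0.19 for PGM2 and -0.054 for UGP2, and upper quartile scaling gave -0.049 for PGM2. When 1 library was left out, HKDC1 ran from -0.14 to 0.090 and PGM2 from -0.047 to 0.12, and the HK2 share difference ran from -1.07 to 0.710 percentage points, where it was -0.443 over all libraries. That positive value came without tau-labelled library 3.

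With the replicate number as a block, 23 members fell and 1 rose, and 3139 of all genes fell and 3181 rose. PFKP and BSG lost their calls. Libraries with the same number had correlations of their deviations of -0.04, -0.01 and -0.09, and no library correlated best with its own number. No shared effect of the number was seen, but correlations this weak cannot decide whether libraries were handled in pairs. ENO3 had 515 and 179 counts summed over the groups and SLC2A12 had 362 and 248, which limits the precision of both.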
